A study of Rattus norvegicus with 6 samples.

Results

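Skeletal muscle contractile genes were measured in regenerated rat sciatic nerve by mRNA sequencing of 6 libraries. The listed genes number 37, and the deposited table of 23091 genes holds 35 of them, each under 1 entry, found by an exact match of the gene symbol. Myh1 and Atp2a1, the other two, were not analysed here. Of the 35 genes, 12 encode isoforms of fast muscle fibres, 7 encode isoforms of slow fibres, and 16 are used by both kinds of fibre or are not split between them here. All libraries came from wild-type male Sprague-Dawley rats with a defect of the sciatic nerve. In the NC group (3 libraries) the wound was closed with no treatment, and in the GDNF-Gel/HA-Mg group (3 libraries, implant 1 to implant 3 here) a conduit carrying glial cell line-derived neurotrophic factor was placed in the defect. The labels do not give the age of the animals, the time after surgery or the level of the cut, and they do not say that libraries came from separate animals. The p-values therefore reflect the spread of these 6 samples alone, and part of that spread may be technical.

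A skeletal muscle fibre shortens when myosin heads of the thick filament pull on actin of the thin filament, and calcium switches this on by binding troponin. Many of these proteins come in a fast and a slow form from separate genes. Where both forms are well counted, their mixture can reflect which kinds of fibre an RNA sample holds. Fast fibres lean on stored phosphocreatine and glycogen, slow fibres on oxygen, and one fast class, type 2A with the myosin Myh2, is also rich in mitochondria. Peripheral nerve has no contractile striated cells of its own, while the sciatic nerve runs between the muscles of the thigh.

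Total counts were 15897850 to 18491379 per library. Levels are given as CPM, the count relative to the library size after TMM scaling (trimmed mean of M values), and are compared between libraries, not between genes, since they are not corrected for gene length. The nerve markers of Schwann cells were present throughout, with a summed level of 1865 to 37947 CPM in NC and 1671 to 19075 CPM in the implant libraries. In a bulk sample, fewer muscle fibres and less RNA per fibre cannot be told apart.

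The promoters of 4 of the genes are shown because the genes behave differently below: relative to Acta1, Ckm ranged over 0.76 and Myh4 over 0.87 log2 units across the libraries, and Myh2 over 4.93. Each is the stretch of 250 bases before the RefSeq start site (build GRCr8), 5′ to 3′ on the gene's strand. Capitals mark matches to 4 motifs, which are the muscle E-box CAGCTG, the TATA-box letters TATAAA on either strand, the MEF2 site and the CArG box bound by serum response factor.
Acta1 (chr19:68784195-68784444, minus strand): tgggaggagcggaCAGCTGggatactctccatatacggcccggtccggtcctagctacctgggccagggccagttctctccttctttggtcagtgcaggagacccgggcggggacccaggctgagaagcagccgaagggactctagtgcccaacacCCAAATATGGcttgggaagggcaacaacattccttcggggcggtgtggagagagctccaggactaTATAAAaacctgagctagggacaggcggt
Ckm (chr1:88189211-88189460, plus strand): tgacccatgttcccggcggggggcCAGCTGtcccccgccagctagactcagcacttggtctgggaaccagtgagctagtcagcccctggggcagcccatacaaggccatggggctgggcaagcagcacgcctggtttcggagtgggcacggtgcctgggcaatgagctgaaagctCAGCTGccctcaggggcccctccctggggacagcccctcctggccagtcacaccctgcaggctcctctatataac
Myh4 (chr10:52421898-52422147, plus strand): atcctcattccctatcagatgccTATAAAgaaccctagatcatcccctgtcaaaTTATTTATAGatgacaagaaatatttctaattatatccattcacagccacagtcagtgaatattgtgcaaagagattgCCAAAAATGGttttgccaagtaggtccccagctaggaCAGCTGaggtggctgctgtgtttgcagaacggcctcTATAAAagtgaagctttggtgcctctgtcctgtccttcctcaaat
Myh2 (chr10:52355489-52355738, plus strand): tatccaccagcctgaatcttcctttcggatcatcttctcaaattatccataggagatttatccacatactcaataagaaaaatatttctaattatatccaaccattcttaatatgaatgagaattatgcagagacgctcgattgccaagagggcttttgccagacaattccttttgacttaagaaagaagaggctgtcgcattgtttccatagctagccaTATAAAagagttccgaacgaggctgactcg

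The Myh4 stretch holds all 4 motifs and the Acta1 stretch all but the MEF2 site. The Ckm stretch holds CAGCTG alone, at 2 places, and the Myh2 stretch holds TATAAA alone. Ckm, with the narrowest range relative to Acta1 of those given above, thus also matches a single motif. Whether the motifs bear on these ranges was not tested. In Myh4 the reverse match of TATAAA lies within the MEF2 site. The longest run of letters that the Myh4 and Myh2 stretches share is 21 bases, aaatatttctaattatatcca, and 2 of 33469 RefSeq promoters hold it. RefSeq promoters were found for 28 of the 35 genes. CAGCTG was in 8 of these 28 (28.6%) against 12.0% of all promoters, and TATAAA in 10 (35.7%) against 12.9%. The MEF2 site was in 4 (14.3%) against 2.96%, and the CArG box in 4 (14.3%) against 1.5%. The muscle genes were each taken with a single promoter, while the 33469 were not reduced in that way. A match describes the letters and is not evidence that a factor binds there.

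Muscle RNA was present in every library and differed between libraries far more than between groups. The 35 genes together made up 0.0211% of all counts in NC 1, 0.0847% in NC 2 and 0.159% in NC 3. In implant 1 they made up 0.0345%, in implant 2 0.264% and in implant 3 1.2%. Tpm2, which smooth muscle also makes, gave much of the sum in the low libraries. It had 1672 of the 3457 counts in NC 1 and 2185 of the 5567 in implant 1, against 3051 of 211115 in implant 3. Their summed level was 1009 ± 966 CPM (SD, n = 3) in NC and 5142 ± 6433 CPM (n = 3) with the conduit. Implant 3 was the highest library for 32 of the 35 genes and NC 1 the lowest for 30. The order from low to high was NC 1, implant 1, NC 2, NC 3, implant 2, implant 3 for 16 genes, and the same with NC 3 and implant 2 exchanged for 7 more. Libraries of the 2 groups are thus interleaved in the commonest order, as the plot of all genes by library shows. In both of these orders each implant library lay above the NC library of the same number.

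**Figure D1:**
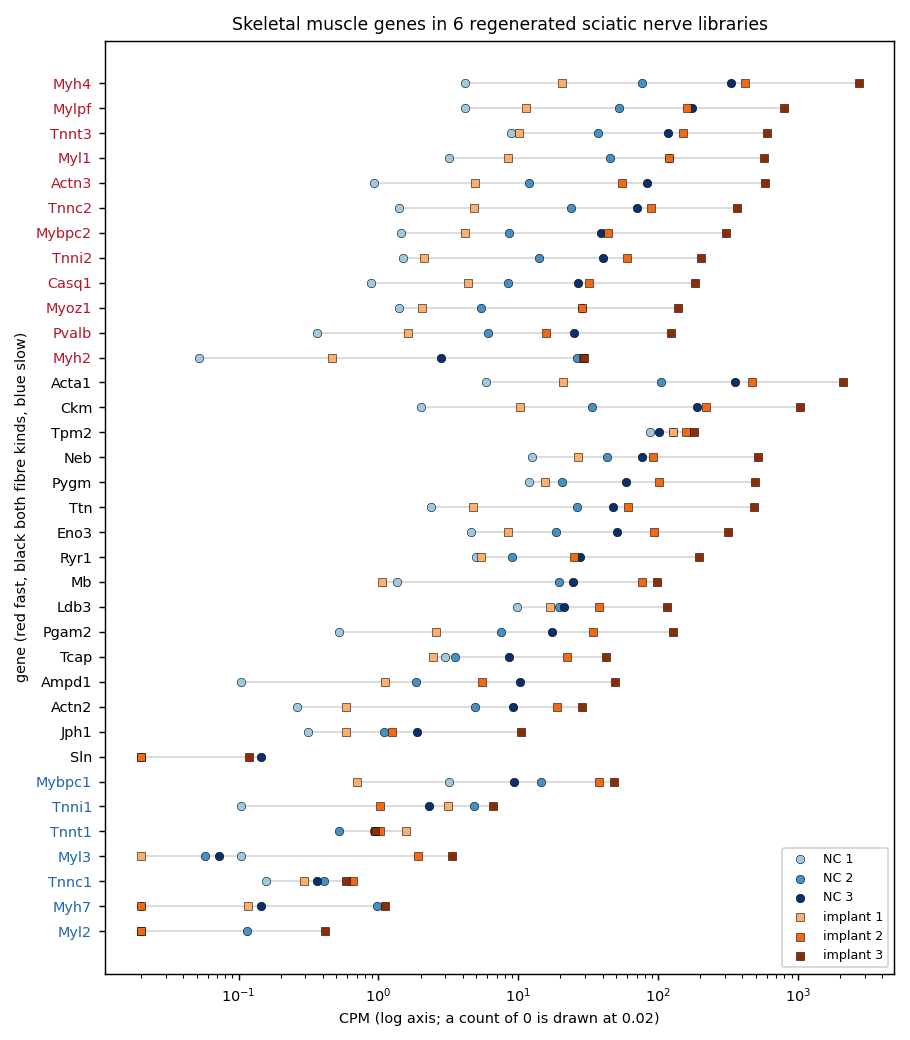
CPM on a log axis for each of the 35 genes (rows), with circles for the 3 NC libraries and squares for the 3 implant libraries. Implant 3 lies farthest right for 32 genes and NC 1 farthest left for 30, while the slow isoforms in blue other than Mybpc1 lie low and, for Tnnt1 and Tnnc1, close together.

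The comparison of the groups asks whether these genes differed with the conduit. In edgeR's quasi-likelihood test with Benjamini-Hochberg adjustment, none of the 30 genes with enough counts to be tested was called, against 0.0% of the 13999 genes tested in all, and each had an adjusted p of 1.0. DESeq2 called 0.0786% of the 13999 genes and none of these 30. At an unadjusted p under 0.05, edgeR found 1 of the 30 genes, against 1.72% of all genes tested, and limma-voom called none of the 13999 after adjustment. All 30 had a positive log2 fold change, where 47.0% of all genes tested did. The median was 2.23, with a median standard error of 1.54, against a median of -0.01 over all genes. A log2 fold change of 2 or more was reached by 21 of the 30 genes and by 0.571% of all genes tested. Groups did not overlap, with the conduit higher, for 2 of the 30 genes, Tpm2 and Tnnt1, and in that same direction for 2.81% of all genes tested. Filtering favours genes that are high in some library, so these counts describe the tested genes and not the list. Of all 35 genes, 34 had the higher mean with the conduit, and Sln, with 2 counts in NC 3 and 2 in implant 3 alone, was the exception.

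Much of the difference came from implant 3. Without it, the ratio of the summed level with the conduit to that in NC was 1.48 in place of 5.10, the median log2 fold change of the 30 genes was 0.58, and 25 were positive. Those that turned negative were Tnni1, Actn3, Pvalb, Jph1 and Ampd1, at -0.20, -0.10, -0.27, -0.24 and -0.28. Without NC 3, the highest NC library, the ratio of summed levels was 10.7 and the median log2 fold change 3.52. The plot of fold changes shows both fits.

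**Figure D2:**
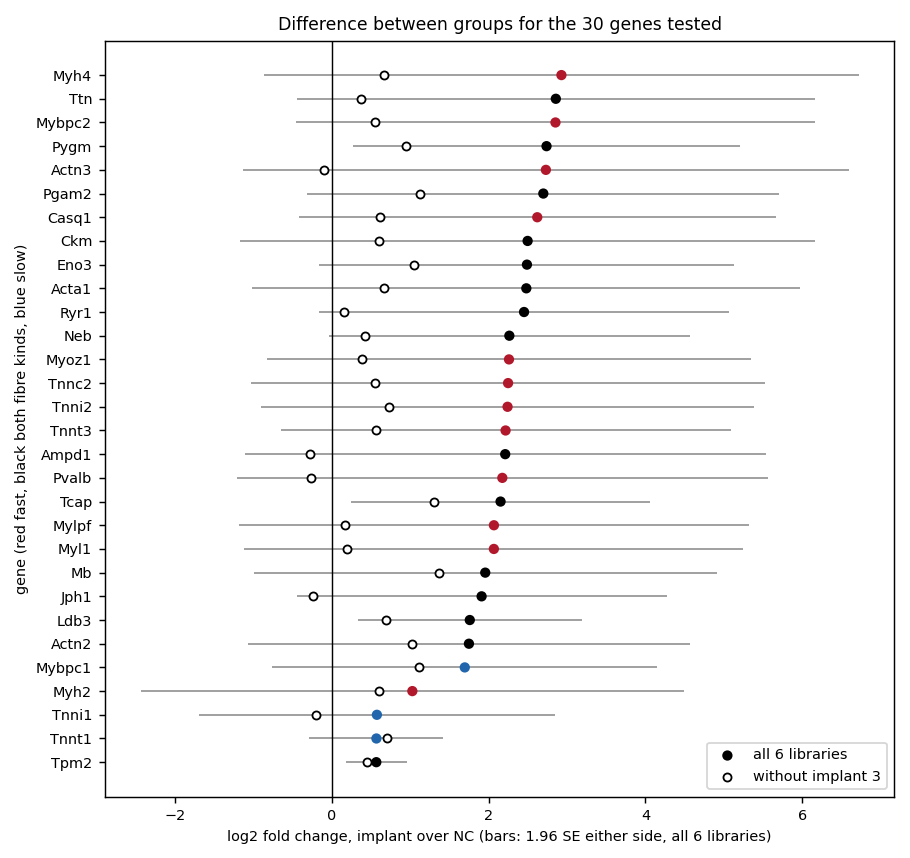
The log2 fold change of implant over NC for the 30 genes tested, with bars of 1.96 standard errors either side (filled points, all 6 libraries) and the same without implant 3 (open points). The bars lie wholly above 0 for 4 genes, Tpm2, Ldb3, Tcap and Pygm, but only Tpm2 had an unadjusted p under 0.05 in edgeR. Without implant 3 the median falls from 2.23 to 0.58 and 5 genes lie below 0.

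Among the motor proteins, Myh4 encodes the myosin heavy chain of the fastest fibres, type 2B. It measured 4.15, 76.5 and 332 CPM in the NC libraries against 20.5, 415 and 2707 CPM in the implant libraries, each in the order 1, 2, 3 as in all that follows. NC 1 and implant 1 were low and implant 3 high, with overlapping groups and a log2 fold change of 2.93 ± 1.93 (SE), the highest of the 30.

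Myh2, the heavy chain of type 2A fibres, measured 0.0519, 26.1 and 2.82 CPM in the NC libraries against 0.468, 29.0 and 29.6 CPM in the implant libraries. NC 2, implant 2 and implant 3 were high and nearly equal, unlike for Myh4, and the groups overlapped (log2 fold change 1.03 ± 1.77). Myh7, the slow heavy chain that is also the main one of heart ventricle, had 0, 17 and 2 counts in the NC libraries against 2, 0 and 19 counts in the implant libraries. That was too few for testing, in both groups. The table gives Myh2 and Myh4 values that are not whole in all 6 libraries and Myh7 in 3, so reads shared between these similar genes may have been divided among them.

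The light chains sit on the neck of the myosin head. Mylpf, the fast regulatory light chain, measured 4.15, 52.4 and 175 CPM in the NC libraries against 11.3, 162 and 796 CPM in the implant libraries. Myl1, the fast essential light chain, measured 3.22, 45.2 and 119 CPM in the NC libraries against 8.37, 119 and 572 CPM in the implant libraries. NC 3 and implant 2 were nearly level for both genes, the groups overlapped, and the log2 fold changes were 2.07 ± 1.66 and 2.07 ± 1.62.

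Their slow counterparts were close to absent. Myl2, the slow regulatory chain, had 0, 2 and 0 counts in the NC libraries against 0, 0 and 7 counts in the implant libraries. Myl3, the slow essential chain, had 2, 1 and 1 counts in the NC libraries against 0, 35 and 57 counts in the implant libraries. Implant 2 and implant 3 thus held nearly all Myl3 counts, while NC 3, whose Myl1 level matched that of implant 2, held 1. Neither gene passed the filter on low counts. In the list of cardiac markers, Nppa and Myl7 were at 0 counts in all 6 libraries, and the list of 8 summed to 1.77 to 9.25 CPM in NC and 1.96 to 6.49 CPM with the conduit. The largest part of that sum in each library was Myl4, which the list of embryonic and regenerating muscle genes below also holds. Myl4 measured 1.19, 2.14 and 8.60 CPM in the NC libraries against 1.11, 1.20 and 5.07 CPM in the implant libraries. Ryr2 ranged from 0.506 to 1.10 CPM and Myh6 from 0 to 0.751 CPM.

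Troponin has 3 subunits, of which T ties the complex to tropomyosin, I blocks the filament and C binds calcium. The fast subunit Tnnt3 measured 8.88, 37.05 and 118 CPM in the NC libraries against 10.1, 151 and 600.0 CPM in the implant libraries. The fast subunit Tnni2 measured 1.51, 14.1 and 40.5 CPM in the NC libraries against 2.11, 59.5 and 203 CPM in the implant libraries. The fast subunit Tnnc2 measured 1.40, 24.0 and 71.0 CPM in the NC libraries against 4.80, 88.9 and 363 CPM in the implant libraries. All 3 followed the commonest order of libraries, with overlapping groups, and their log2 fold changes lay between 2.22 and 2.25.

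The slow subunits did not follow that order. Tnnt1 measured 0.935, 0.520 and 0.940 CPM in the NC libraries against 1.58, 1.03 and 0.943 CPM in the implant libraries, a spread of 3.04-fold over the libraries where Tnnt3 spanned 67.6-fold. The implant libraries lay above the NC libraries, but the nearest pair, implant 3 with 16 counts and NC 3 with 13, differed by less than counting error, and the log2 fold change was 0.57 ± 0.44. Tnnc1, which slow fibres share with heart, had 3, 7 and 5 counts in the NC libraries against 5, 12 and 10 counts in the implant libraries and was not tested.

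Tnni1, the slow inhibitory subunit, measured 0.104, 4.80 and 2.31 CPM in the NC libraries against 3.16, 1.03 and 6.54 CPM in the implant libraries. It was low in NC 1 and implant 2, in which the summed Schwann cell markers were also low at 1865 and 1671 CPM, against 3171 to 37947 CPM in the other 4 libraries. The part of Schwann cells in the Tnni1 level was not tested. In implant 1 there were 54 counts of Tnni1 and 36 of Tnni2, so the slow gene gave 60% of the pair's counts there (95% Wilson interval 49.7% to 69.5%, counting error only), against 1.71% to 25.4% in the others. The groups overlapped, with a log2 fold change of 0.57 ± 1.16.

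Myosin-binding protein C braces the thick filament. Its fast form Mybpc2 measured 1.45, 8.55 and 39.0 CPM in the NC libraries against 4.16, 43.5 and 305 CPM in the implant libraries. Its slow form Mybpc1 measured 3.17, 14.6 and 9.25 CPM in the NC libraries against 0.702, 38.0 and 48.6 CPM in the implant libraries. Mybpc1 was the slow gene with the most counts, and it was lowest in implant 1 and not in NC 1. The log2 fold changes were 2.85 ± 1.69 for Mybpc2 and 1.70 ± 1.25 for Mybpc1, with overlapping groups for both.

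Fast isoforms took most of the pooled counts of the 7 matched pairs in each library. The share of slow counts over all pairs was 15.2% in NC 1, 7.02% in NC 2 and 1.44% in NC 3. With the conduit it was 8.64%, 3.84% and 1.09%. Most of the slow counts came from Mybpc1, except in implant 1. It gave 61 of 86 slow counts in NC 1, 252 of 371 in NC 2 and 128 of 181 in NC 3. With the conduit it gave 12 of 100, 700 of 785 and 824 of 1044. Outside implant 1 the pooled share thus rests mainly on Mybpc1, while Myh7 had 0 to 19 counts and Myl2 0 to 7. Neither the pooled share nor that of the myosin-binding protein C pair is read here as the content of slow fibres. The pooled share was lower in libraries with more muscle counts, except that implant 2 stood above NC 3. The pairs behaved differently. In the troponin T pair the slow share went from 13.5% in implant 1 to 0.157% in implant 3, and in the troponin C pair from 10% in NC 1 to 0.162% in implant 3. Across the libraries Tnnt1 stayed at 9 to 27 counts and Tnnc1 at 3 to 12. These shares thus moved mainly with the fast counts. In the regulatory light chain pair it was 0.22% or less in each library, and 4 libraries had no Myl2 count, which allows up to 3.75% in NC 1, where the pair had its fewest counts, 80. In the myosin-binding protein C pair it was 68.5%, 63.0% and 19.2% in NC and 14.5%, 46.6% and 13.7% with the conduit.

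**Figure D3:**
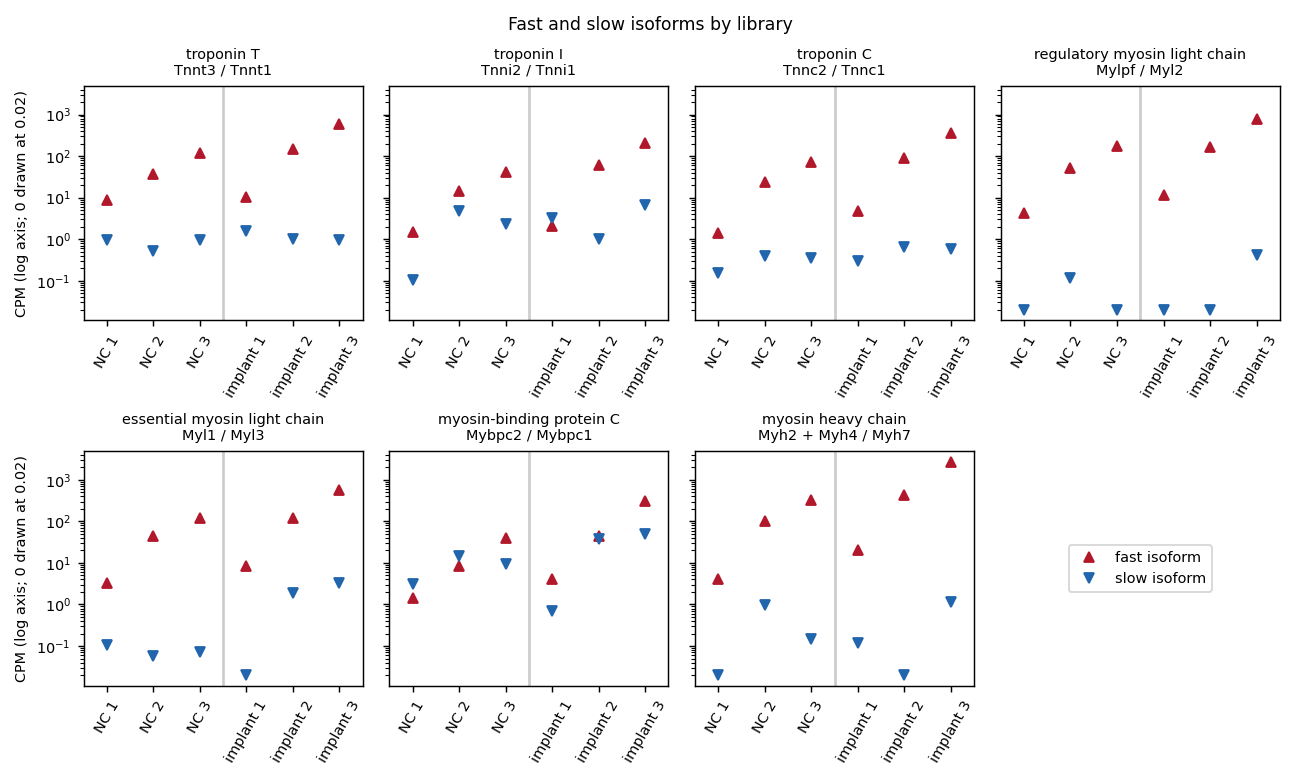
CPM on a log axis of the fast isoform (red, upward triangles) and the slow isoform (blue, downward triangles) of 7 pairs in each library, with NC left of the grey line and the implant libraries right of it. The fast isoforms rise and fall together over the libraries, Tnnt1 and Tnnc1 stay nearly level, and Mybpc1 lies above Mybpc2 in NC 1 and NC 2.

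The fast to slow ratio within a library does not depend on library scaling, and it did not separate the groups for any pair. The log2 ratio of counts (0.5 added to each) was 5.40 ± 1.94 in NC and 6.36 ± 3.38 with the conduit for troponin T (SD, n = 3 each, two-sided exact permutation p = 0.7). For troponin I it was 3.07 ± 1.35 and 3.39 ± 3.47 (exact p = 0.9), and for troponin C 5.42 ± 2.28 and 6.71 ± 2.66 (exact p = 0.6). For the heavy chains, Myh2 and Myh4 together against Myh7, it was 8.29 ± 2.25 and 10.8 ± 3.43 (exact p = 0.3). For myosin-binding protein C it was 0.07 ± 1.75 and 1.79 ± 1.38 (exact p = 0.2). The regulatory and essential light chains had differences of 1.29 and -0.75 (exact p = 0.5 and 0.7). After adjustment over the 7 pairs every value was 0.817 or more in these exact tests, and 3 libraries against 3 cannot give a raw p below 0.1. All 7 pairs overlapped between the groups.

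In the thin filament, Acta1 encodes skeletal muscle actin. It measured 5.87, 106 and 351 CPM in the NC libraries against 20.8, 468 and 2095 CPM in the implant libraries. Implant 3 was high, NC 1 and implant 1 low, and the groups overlapped (log2 fold change 2.48 ± 1.78). Nebulin (Neb), the ruler of thin filament length, ranged from 12.6 CPM in NC 1 to 517 CPM in implant 3.

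Tpm2, beta-tropomyosin, lies along actin and is also made by smooth muscle. It measured 86.8, 127 and 101 CPM in the NC libraries against 128, 158 and 180 CPM in the implant libraries. The groups did not overlap, though NC 2 and implant 1 were nearly equal, and the whole spread was 2.07-fold where Acta1 spanned 357-fold. Its log2 fold change of 0.57 ± 0.20 had the smallest unadjusted p of the 30 genes in edgeR, 0.0295, with an adjusted p of 1.0. It was the 1 gene of the 30 below 0.05. The summed smooth muscle and pericyte markers ranged from 1057 to 1395 CPM in NC and from 835 to 1470 CPM with the conduit, and were lowest in implant 3, where Tpm2 was highest. The part of smooth muscle in the Tpm2 level was not tested.

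At the Z-disc, which anchors the thin filaments, the fast actinin Actn3 measured 0.935, 11.8 and 83.3 CPM in the NC libraries against 4.92, 54.9 and 576 CPM in the implant libraries. Myoz1, which binds calcineurin there in fast fibres, measured 1.40, 5.38 and 28.6 CPM in the NC libraries against 2.05, 28.6 and 138 CPM in the implant libraries. For both genes NC 3 was as high as implant 2 or higher, and the groups overlapped. Titin (Ttn), the spring that runs from Z-disc to thick filament, measured 2.39, 26.4 and 47.5 CPM in the NC libraries against 4.74, 60.8 and 486 CPM in the implant libraries.

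Ldb3, a Z-disc adaptor, measured 9.81, 19.6 and 21.1 CPM in the NC libraries against 16.9, 37.7 and 116 CPM in the implant libraries. It spanned 11.9-fold, less than most of these genes, and implant 1 alone of the implant libraries lay among the NC libraries (log2 fold change 1.76 ± 0.73). Actn2, the actinin of all fibres, ranged from 0.26 to 28.5 CPM and Tcap, the titin cap, from 2.46 to 42.2 CPM.

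Calcium handling genes included Casq1, the calcium store protein of fast fibres, which measured 0.883, 8.50 and 26.5 CPM in the NC libraries against 4.39, 32.2 and 183 CPM in the implant libraries. Pvalb, the soluble calcium buffer of the fastest fibres, measured 0.363, 6.07 and 24.9 CPM in the NC libraries against 1.64, 15.6 and 123 CPM in the implant libraries. Pvalb was higher in NC 3 than in implant 2, and both genes overlapped between groups (log2 fold changes 2.62 ± 1.55 and 2.17 ± 1.73).

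Ryr1, the channel that releases calcium, measured 4.98, 9.02 and 27.5 CPM in the NC libraries against 5.44, 25.2 and 196 CPM in the implant libraries. Jph1, which holds the store next to the surface membrane, measured 0.312, 1.10 and 1.88 CPM in the NC libraries against 0.585, 1.25 and 10.4 CPM in the implant libraries. Apart from implant 3, each of these genes had NC 3 as its highest library. Sln, an inhibitor of the calcium pump, had 2 counts in NC 3, 2 in implant 3 and none in the other libraries.

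For energy supply, Ckm encodes the creatine kinase that buffers ATP. It measured 2.02, 33.6 and 189 CPM in the NC libraries against 10.3, 218 and 1041 CPM in the implant libraries. Pygm, the phosphorylase that breaks down glycogen in muscle, measured 11.9, 20.5 and 58.6 CPM in the NC libraries against 15.6, 101 and 490 CPM in the implant libraries. Only implant 2 and implant 3 lay above all NC libraries for both genes, and the log2 fold changes were 2.50 ± 1.87 and 2.74 ± 1.26. The glycolytic enzymes Eno3 and Pgam2 ranged from 4.62 to 314 and from 0.519 to 127 CPM, and Ampd1, the AMP deaminase of muscle, from 0.104 to 49.2 CPM.

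Mb encodes myoglobin, the oxygen store of oxidative fibres. It measured 1.35, 19.6 and 24.6 CPM in the NC libraries against 1.05, 77.0 and 98.2 CPM in the implant libraries. Implant 2 stood close to implant 3, and implant 1 was the lowest library. The log2 fold change was 1.96 ± 1.51.

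Within a library, most fast genes kept close proportions to actin. Relative to Acta1 (log2 ratio of counts, 0.5 added to each), 9 of 12 fast genes and 4 of the 15 genes of neither fibre class stayed within a range of 2 log2 units over the 6 libraries, while Acta1 itself spanned 357-fold. The other 3 fast genes were Myoz1, Tnnt3 and Myh2, with ranges of 2.24, 2.40 and 4.93 log2 units. Mb, the oxygen store of oxidative fibres, had a range of 2.32, between those of Myoz1 and Tnnt3. Of the slow genes, Mybpc1 had 12 to 824 counts and a range of 4.5 log2 units. Tnnt1 had a range of 8.5, while its own counts stayed at 9 to 27. Nothing is read from this measure for the other slow genes, since counts at or near 0 widen it. Ckm gave 34.5, 31.8 and 53.9 counts per 100 Acta1 counts in the NC libraries against 49.6, 46.6 and 49.7 in the implant libraries. Tnnc2 gave 23.9, 22.7 and 20.2 counts per 100 Acta1 counts in the NC libraries against 23.1, 19.0 and 17.3 in the implant libraries. The highest library was 1.69-fold above the lowest for Ckm and 1.38-fold for Tnnc2.

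Other ratios varied between libraries, and were chosen for display after their values were seen. Myh2 gave 1.25, 34.1 and 0.849 counts per 100 Myh4 counts in the NC libraries against 2.28, 6.99 and 1.09 in the implant libraries. NC 2 was far above the rest and implant 2 next. Mb gave 66.7, 58.4 and 13.0 counts per 100 Ckm counts in the NC libraries against 10.2, 35.3 and 9.43 in the implant libraries. Actn2 gave 27.8, 41.5 and 11.02 counts per 100 Actn3 counts in the NC libraries against 11.9, 34.3 and 4.94 in the implant libraries. Mybpc1 gave 218, 170 and 23.7 counts per 100 Mybpc2 counts in the NC libraries against 16.9, 87.4 and 15.9 in the implant libraries. For the last 3 ratios NC 1, NC 2 and implant 2 stood above NC 3, implant 1 and implant 3, so the high and the low libraries each came from both groups. Several of these ratios rest on few counts. In NC 1 there was 1 count for Myh2, 5 for Actn2 and 18 for Actn3, and in implant 1 there were 8 for Myh2, 10 for Actn2 and 12 for Mybpc1.

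**Figure D4:**
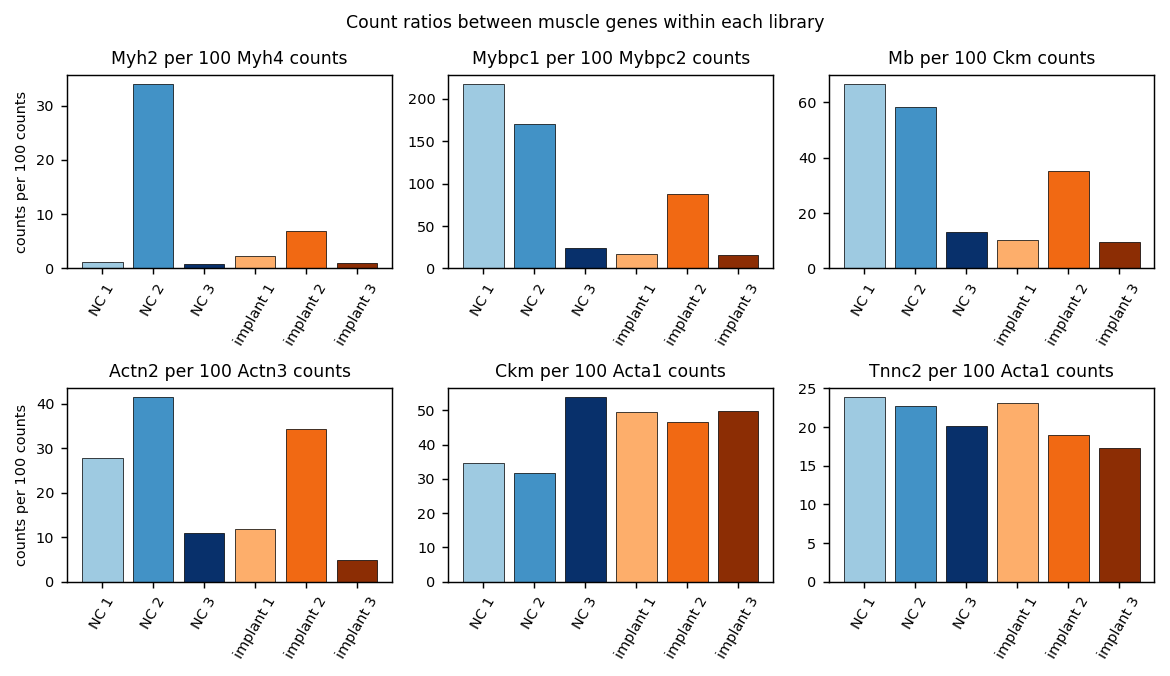
Counts of one gene per 100 counts of another in each library (blue bars NC, orange and brown bars implant), not corrected for gene length. Ckm and Tnnc2 per Acta1 span 1.69-fold and 1.38-fold, Mb per Ckm, Actn2 per Actn3 and Mybpc1 per Mybpc2 are high in NC 1, NC 2 and implant 2, and Myh2 per Myh4 is high in NC 2.

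Other genes of muscle, listed beside these, gave the following. Of 36 other adult muscle genes 34 were tested, 31 had a positive log2 fold change and none was called by edgeR, with a median of 1.57. By highest mean level the list was led by Myoz3, Cmya5 and Myom2. Cmya5, a large protein of the costamere, measured 3.53, 10.9 and 35.6 CPM in the NC libraries against 3.98, 41.5 and 255 CPM in the implant libraries, which is the commonest order of libraries given above, over a span of 72.2-fold. Myoz3 measured 133, 49.5 and 80.0 CPM in the NC libraries against 120, 134 and 73.1 CPM in the implant libraries and did not share that order.

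Of 8 other slow fibre genes, 6 were tested, 2 had a positive and 4 a negative log2 fold change, and none was called by edgeR, with a median of -0.14. Most of their summed level of 554 to 712 CPM came from Tpm3, Atp2a2 and Fhl1, which many cell types make. Of the 15 embryonic and regenerating muscle genes 7 were tested, with 5 positive, none called and a median of 0.24. Des, the intermediate filament desmin, measured 60.1, 91.3 and 126 CPM in the NC libraries against 88.3, 115 and 268 CPM in the implant libraries. Of 13 genes of denervated muscle, 9 were tested, with 6 positive, none called and a median of 0.09. Their summed level was 122 to 192 CPM in NC and 156 to 191 CPM with the conduit. The libraries thus overlapped for each of these lists.

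Markers of other cells also differed between libraries. The 8 adipocyte markers summed to 4803, 2011 and 14109 CPM in NC and to 2555, 4897 and 3243 CPM with the conduit. The share of counts from haemoglobin genes was 1.19%, 1.02% and 25.2% in the NC libraries against 8.08%, 12.9% and 14.8% in the implant libraries. NC 1 and NC 2, the libraries lowest in haemoglobin, were with implant 1 the 3 libraries lowest in summed muscle level, at 179, 778 and 326 CPM. The part of blood, fat or Schwann cell content in the muscle levels was not tested. The plot of summed levels sets these lists beside the muscle genes.

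**Figure D5:**
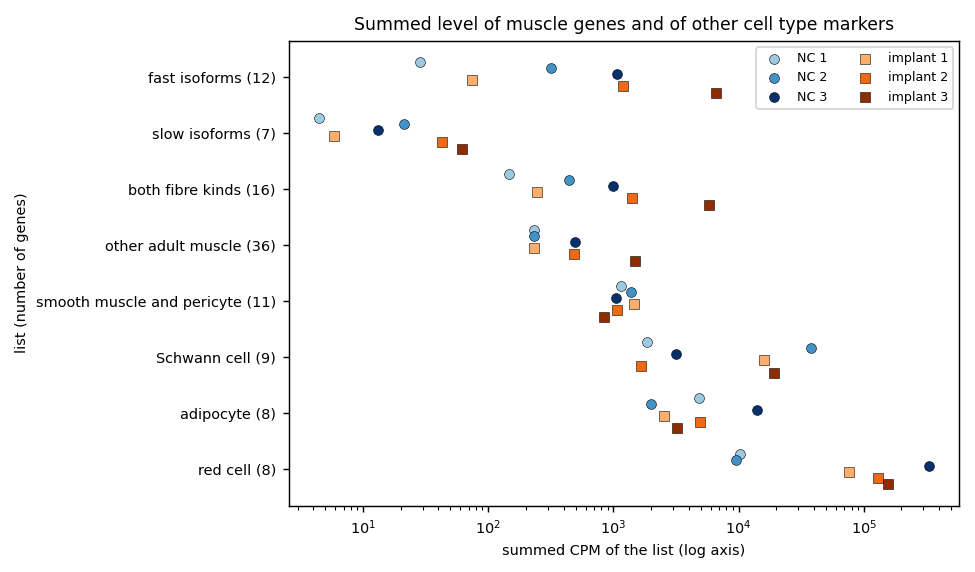
Summed CPM on a log axis of the fast, slow and common muscle genes and of other lists, with the number of genes in brackets, in each NC library (circles) and each implant library (squares). The fast isoforms span 232-fold and the slow isoforms 13.8-fold, and NC and implant libraries are mixed along every row.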

How the data were processed

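Each sample's gene values are expected counts (each estimated count is one value per gene) that the authors deposited without normalization, judging by the unequal column totals, and 1898 to 2085 values per library are not whole. Programs listed in the submitters' processing notes are HISAT2, Bowtie2 2.2.8, DESeq2 and StringTie 1.3.1, and what each was used for is not stated. The genome build, the annotation and the counting program are not given in the sources here. The labels' protocols describe selection of polyadenylated RNA and the NEBNext Ultra kit, which does not mark strand, so overlapping antisense reads cannot be told apart. The column names of the treated samples lack the word GDNF, and these columns were given to the single group with Gel/HA-Mg.

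Counts were rounded, filtered with filterByExpr, scaled by TMM and tested with edgeR 4.0.16 (quasi-likelihood, two-sided, group only) in R 4.3.3, adjusted over all 13999 genes and called under 0.05. Standard errors are the size of the log2 fold change over the square root of edgeR's F. Alternatives were other scalings, filters, DESeq2 1.42.0, limma-voom (limma 3.58.1), a replicate block and each library left out. No pair of libraries agreed within sampling noise by chi-square. Isoform ratios were compared with exact permutation tests (scipy 1.17.1). Intervals and limits on counts cover counting error only.

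Members and lists were chosen with earlier results of these data known. Every library is given for the genes of the 7 pairs and for the 2 of highest mean CPM in each other role, and at most 3 of highest mean CPM were to be named per further list. Nppa, Myl7 and, in the closing section, Myh3 and the myogenic factors fall outside that rule and were named after their values were seen. Promoters come from RefSeq (GRCr8). No gene coordinates of the counting annotation were used.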

Additional observations from a re-analysis of the deposited data

How the results depend on the processing

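No gene was called over all genes in any alternative except DESeq2, which called 11 of 13999, none of them among the muscle genes. None of the muscle genes was called in any of the 14 alternatives. Of those tested, 25 to 32 were positive when 1 library was left out, and 34 of 35 with no filter on low counts. Their median log2 fold change was 0.58 without implant 3, where Tnni1, Actn3, Pvalb, Jph1 and Ampd1 turned to -0.20, -0.10, -0.27, -0.24 and -0.28, and 0.58 to 3.52 over the libraries left out. For these 5 genes the highest values with 1 library left out were 1.60, 5.07, 3.89, 2.54 and 4.28.

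With 1 library left out, the difference in log2 fast to slow ratio ranged from -0.50 to 2.81 for troponin T, from -0.89 to 2.31 for troponin I and from -2.39 to 0.34 for the essential light chain, each changing direction. It kept its direction for troponin C (0.05 to 2.70), the regulatory light chain (0.28 to 2.73), myosin-binding protein C (1.13 to 2.72) and the heavy chains (0.90 to 4.32). In Myl2, Myl3 and Myh7, counts of 0 to 3 in most libraries limit these ratios.

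The replicate numbers are shared by the groups. Over expressed genes of all kinds, deviations from the group mean correlated at 0.07, -0.76 and 0.05 between samples with the same number. Between samples with unlike numbers the correlations ranged from -0.64 to 0.57, so this check cannot decide whether the numbers mark pairs. The main fit has no block because the labels give no pairing. The summed muscle level did rise with the number in both groups, at 179, 778 and 2070 CPM in NC. With the conduit it was 326, 2653 and 12448 CPM, above the NC library of the same number each time. Whether equal numbers mark pairs cannot be told from the labels. With the replicate number as a block, 0 genes were called over all genes, and 30 of 30 muscle genes were positive with a median of 1.79. Under the block, 22 of the 30 had an unadjusted p below 0.05, against 1 without it, beside 188 of all 13999 genes.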

Other observations

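Transcription factors of the muscle lineage were at low levels, and these genes were named after their values were seen. Myod1, which commits cells to muscle, measured 0, 0.289 and 0.578 CPM in the NC libraries against 0.117, 0.326 and 3.66 CPM in the implant libraries. Myf6, the member of this family kept by mature fibres, measured 0.0519, 0.694 and 1.45 CPM in the NC libraries against 0, 1.79 and 7.49 CPM in the implant libraries. Both were highest in implant 3, where the contractile genes were highest, and in the other 5 libraries they stayed under the implant 3 level. Pax7, the marker of muscle satellite cells, measured 0, 0 and 0.0723 CPM in the NC libraries against 0.0585, 0.217 and 0.59 CPM in the implant libraries. Pax7 and Myod1 did not pass the filter on low counts and were not tested, and their lowest values lie at or near 0 counts.

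The embryonic heavy chain Myh3, named after its values were seen, had its highest level in NC 3 and not in implant 3. It measured 0, 0.694 and 5.71 CPM in the NC libraries against 0.0585, 0.109 and 1.89 CPM in the implant libraries. Implant 2, which had about the summed adult muscle level of NC 3, held hardly any Myh3. The groups overlapped, and edgeR's unadjusted p was 0.407.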
